A study of Mus musculus with 30 samples.

Results

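The 10 genes Acly, Acss2, Acaca, Fasn, Elovl6, Scd1, Scd2, Fads1, Fads2 and Srebf1 carry out or control the making and desaturation of fatty acids. They were taken from the deposited count matrix by matching each Ensembl identifier, without its version suffix, to these mouse symbols. All 10 were found among 57186 identifiers, and all 10 passed the filter on low counts in both cell lines. RNA had been sequenced from NIH/3T3, a mouse embryonic fibroblast line grown in DMEM with fetal bovine serum, and from CGR8, a mouse embryonic stem cell line grown in N2B27 medium supplemented with 2i and LIF. Both lines are labelled with the genotype ROSA26 SLT knock-in, which the 0 h controls carry too, and the labels neither expand SLT nor say whether a line is a single clone. Cells received cycloheximide (CHX), which stops the ribosome from elongating proteins, at 0.1 µg/mL for 0, 1, 2, 5 or 48 h, in 3 replicates of each line and time (30 libraries). The question was how the transcripts of each line respond early to the block, with 0 h as the reference. No untreated library was taken at 48 h among the samples analysed here, so that time in culture and CHX cannot be told apart.

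Fatty acids are built in the cytosol from acetyl-CoA. ATP citrate lyase (Acly) makes acetyl-CoA from citrate, and acetyl-CoA synthetase (Acss2) makes it from acetate. Acetyl-CoA carboxylase (Acaca) turns it into malonyl-CoA in the committed step, and fatty acid synthase (Fasn) joins these units into palmitate. Elovl6 lengthens palmitate to stearate. The stearoyl-CoA desaturases Scd1 and Scd2 put in the double bond of oleate and palmitoleate, whereas Fads1 and Fads2 desaturate dietary polyunsaturated fatty acids. Srebf1 encodes SREBP1, a transcription factor held in the endoplasmic reticulum until it is cleaved, whose known targets include most of these enzymes.

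Promoter sequences were looked up because genes of this pathway share transcription factors. RefSeq promoters (GRCm38.p6, 250 bases before to 50 after a start site) were found for 7 of the 10 genes, with 9 promoters in all. The 250 bases upstream of the start site are shown for Fasn, Acss2 and Elovl6, which took different courses over the treatment as described further on. Capitals mark the CCAAT box (CCAAT on either strand), which the factor NF-Y binds. The windows lie at chr11:120824548-120824797 on the minus strand for Fasn, at chr2:155517793-155518042 on the plus strand for Acss2 and at chr3:129532136-129532385 on the plus strand for Elovl6.
Fasn: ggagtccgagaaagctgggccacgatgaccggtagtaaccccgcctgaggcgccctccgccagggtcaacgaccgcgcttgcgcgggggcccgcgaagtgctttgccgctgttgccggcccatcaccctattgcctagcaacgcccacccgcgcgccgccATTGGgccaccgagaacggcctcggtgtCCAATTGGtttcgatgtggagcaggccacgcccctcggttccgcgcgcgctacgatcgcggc
Acss2: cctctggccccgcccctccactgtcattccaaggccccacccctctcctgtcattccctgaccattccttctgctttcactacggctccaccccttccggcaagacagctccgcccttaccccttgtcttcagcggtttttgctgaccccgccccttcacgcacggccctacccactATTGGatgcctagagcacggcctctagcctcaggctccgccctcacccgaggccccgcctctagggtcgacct
Elovl6: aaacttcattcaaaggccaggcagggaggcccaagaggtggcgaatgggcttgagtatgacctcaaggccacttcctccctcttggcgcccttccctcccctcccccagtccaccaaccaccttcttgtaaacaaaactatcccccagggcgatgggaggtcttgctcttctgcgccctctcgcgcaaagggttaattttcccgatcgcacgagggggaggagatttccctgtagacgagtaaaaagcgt
Fasn held 3 CCAAT boxes, starting 90, 62 and 59 bases before the start site, and the latter 2 overlap. Acss2 held 1, starting 73 bases before it, and Elovl6 held none in this window. Counted over the full 300 bases, the CCAAT box was present in 4 of the 7 genes (Acly, Acss2, Fasn and Srebf1) against 41.1% of all 27025 genes with a promoter in the table. The GC box (GGGCGG on either strand) was present in 4 of the 7 (Acly, Acss2, Fads2 and Srebf1) against 38.2% of genes. The sterol regulatory element, searched as TCACNCCAC on either strand, and the E-box CACGTG were each found in 0 of the 7, against 1.44% and 8.09% of genes. Shares this low leave few matches to expect in 7 genes, so these counts do not set the genes apart. The window of Acaca (chr11:84195188-84195487, plus strand) lies inside the gene, which starts at 84129672 in GENCODE M21. A match describes letters in these windows and not a bound site. Whether the number of boxes goes with the course of a gene was not tested.

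Library totals ranged from 18.2 to 30.5 M counts, and no replicate pair agreed within sampling noise (lowest chi-square per degree of freedom 1.67). Levels are in CPM, the count of a gene scaled to a common library total, here the counts in tested genes after TMM scaling. They are shares of a library, so a change in a gene's own RNA and a change in the rest of the library cannot be told apart. A change in total RNA per cell or in cell number is not seen in them. Pou5f1, Nanog, Zfp42 and Esrrb did not exceed 0.383 CPM in any NIH/3T3 library and were at least 408 CPM in every CGR8 library, whereas Col1a1, Col1a2, Col3a1 and Lox separated the lines the other way. Sox2 (20.4 to 30.7 CPM in NIH/3T3) and Fn1 (421 to 1149.5 CPM in CGR8) were present in both lines. The 6 adipocyte markers summed to at most 2.99 CPM in NIH/3T3 and 6.52 CPM in CGR8, with Cebpa at 0 in NIH/3T3, Fabp4 at 0 in CGR8 and Pparg at no more than 0.120 CPM in either. The summed stem cell markers moved from 3349 to 3391 CPM at 0 h to 4301 to 4604 CPM at 48 h in CGR8. Nanog and Zfp42 were called higher there at 2 h, 5 h and 48 h, as were Pou5f1 at 5 h and Sox2 at 48 h. Esrrb was called lower at 2 h and 5 h. The 5 markers of endoderm and early differentiation summed to 8.13 to 9.61 CPM at 0 h and 15.5 to 26.7 CPM at 48 h there, with Gata4 and Otx2 called higher. Most of that sum was Otx2 (6.46 to 23.1 CPM), and Gata6, Sox17 and Fgf5 did not exceed 0.637 CPM in CGR8. Gata4 was called higher at 48 h in NIH/3T3 too, though the test between the lines called its change higher in CGR8. Its level was at least 11.8 CPM in NIH/3T3 and at most 3.66 CPM in CGR8. The other markers of this list were at 0 in NIH/3T3. The summed fibroblast markers stood at 7838 to 8416 CPM at 0 h, 5199.6 to 6397 at 2 h, 5916 to 6919.5 at 5 h and 11461 to 11843 at 48 h in NIH/3T3. Of these markers Col1a1, Col1a2 and Col3a1 were called lower at 2 h and 5 h and higher at 48 h. Fn1 went the other way at 5 h, called higher, and was higher at 48 h too. The part of these marker changes in the results on the fatty-acid genes was not tested.

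**Figure D1:**
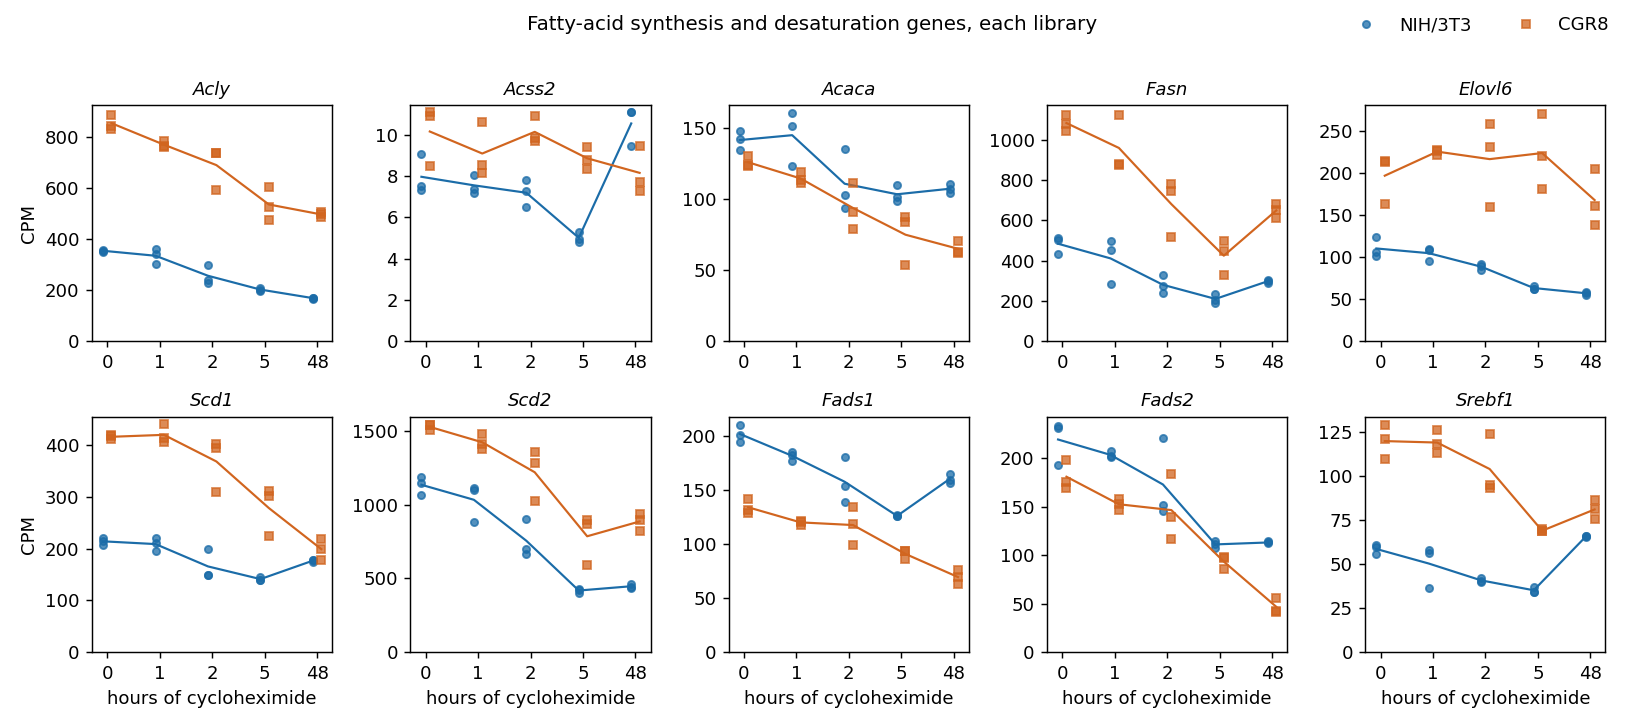
CPM of each gene (vertical axis, from 0) at 0, 1, 2, 5 and 48 h of cycloheximide (horizontal axis, evenly spaced). Points are single libraries, circles for NIH/3T3 and squares for CGR8, and lines join the means of the 3 libraries of each group. Most genes are lower at 5 h than at 0 h, while Elovl6 in CGR8 is not, and Acss2 and Srebf1 in NIH/3T3 are high again at 48 h.

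The 10 genes together made up 2866 to 3038 CPM in NIH/3T3 and 4601 to 4681 CPM in CGR8 before treatment. At 5 h they made up 1384 to 1465 CPM in NIH/3T3 and 2124 to 2858 CPM in CGR8, and at 48 h 1599 to 1610.2 CPM and 2493 to 2814 CPM. Neither line's 5 h or 48 h libraries overlapped with its 0 h libraries in this sum. To compare genes with each other, levels were divided by the length of the gene's merged exons in GENCODE M21. Scd2 was the highest per kilobase in both lines at 0 h, at 208 ± 11.3 CPM per kb in NIH/3T3 and 279.5 ± 3.57 in CGR8 (SD, n = 3). It stayed the highest of the 10 at every time in both lines. In NIH/3T3 the order at 0 h went on with Acly (66.9 ± 0.721 CPM per kb), Fads2 (66.4 ± 6.79), Fasn (44.2 ± 3.94), Scd1 (43.8 ± 1.51), Fads1 (42.1 ± 1.74), Elovl6 (17.2 ± 1.88), Srebf1 (10.4 ± 0.470), Acaca (8.28 ± 0.437) and Acss2 (0.783 ± 0.0954). Acly and Fads2 did not differ beyond their spread, nor did Fasn, Scd1 and Fads1. In CGR8 it went on with Acly (161 ± 5.62 CPM per kb), Fasn (99 ± 3.55), Scd1 (85.2 ± 0.631), Fads2 (54.7 ± 4.68), Elovl6 (30.6 ± 4.57), Fads1 (27.9 ± 1.41), Srebf1 (21.3 ± 1.78), Acaca (7.36 ± 0.233) and Acss2 (1.00 ± 0.147), where Elovl6 and Fads1 lay within their spread. Merged exons of Acss2 and Acaca are much longer than their longest transcript (10163 against 3609 bases and 17074 against 9513 bases), and the order depends on the length used. Per kilobase of the longest transcript Fads1 (58.6) stood above Fasn (48.2) and Scd1 (44.3) in NIH/3T3, where Acaca was in the eighth place, and above Elovl6 in CGR8 (38.8 against 33.1).

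The untreated lines differed in 9 of the 10 genes, read against 79.1% of the 17549 genes tested in either direction. Here CPM come from 1 scaling of all 30 libraries. Acly stood at 359, 358 and 358 CPM in the 3 NIH/3T3 libraries and at 825, 877 and 812 CPM in the 3 CGR8 libraries. Fasn stood at 522, 436 and 515 CPM in NIH/3T3 and at 1103, 1070.3 and 1023 CPM in CGR8. Srebf1 stood at 60.4, 55.8 and 62 CPM in NIH/3T3 and at 127, 108 and 118 CPM in CGR8. None of these groups overlap, and the log2 differences (CGR8 against NIH/3T3) were 1.23 ± 0.10 for Acly, 1.12 ± 0.17 for Fasn and 0.99 ± 0.12 for Srebf1 (± SE, adjusted p of 5.8e-12, 9.76e-07 and 2.1e-08). Scd1 (0.91 ± 0.11), Elovl6 (0.79 ± 0.15), Scd2 (0.38 ± 0.13) and Acss2 (0.31 ± 0.13) were also higher in CGR8. The polyunsaturated desaturases went the other way, at -0.64 ± 0.10 for Fads1 and -0.32 ± 0.14 for Fads2, and Acaca was not called (-0.21 ± 0.14, adjusted p = 0.159). The median over all genes was 0.15 with TMM scaling and 0.23 with RLE scaling. With DESeq2 or a filter at a mean of at least 5 CPM, 1 gene in place of 2 was called lower in CGR8. The call of Fads2 was lost with RLE (adjusted p = 0.127), with library size scaling (adjusted p = 0.0652) and in 4 of the 6 fits that leave out 1 library. The call of Acss2 was lost in 4 of those 6 fits as well (adjusted p up to 0.168), with no filter, with the replicate block and with the compared groups alone. With the replicate block the calls of Scd2 and Fads2 were lost too, and Acaca was called lower in CGR8, as it was with the compared groups alone and with voom. The cell line and its culture medium cannot be told apart in this comparison.

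At 1 h of CHX none of the 10 genes passed the test in either line. The share of all tested genes called was 0.732% in NIH/3T3 and 0.270% in CGR8. The log2 changes against 0 h ran from -0.23 (Fasn) to 0.03 (Acaca) in NIH/3T3 and from -0.24 (Fads2) to 0.19 (Elovl6) in CGR8. At an unadjusted p under 0.05 none of them passed either, and DESeq2 called none. The responses of the lines at 1 h differed for none of the 10 by the same test, DESeq2 or an unadjusted p under 0.05 (0.160% of all genes were called). Limma's voom with sample quality weights, added after the data were seen, called Fads1 in NIH/3T3 (-0.16, adjusted p = 0.0260). In NIH/3T3 replicate C of 1 h was the lowest of its group in 8 of the 10 genes, with Fasn at 284 CPM beside 452 and 498. Groups can lie apart without a call. In CGR8 the 1 h libraries lay below those of 0 h for Acly, Acaca, Scd2, Fads1 and Fads2 and above them for Elovl6. Fads1 in NIH/3T3 also lay below. The share of all genes whose groups lie apart is not reported here, so non-overlap only describes the libraries, here and at the other times.

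By 2 h the genes were lower in NIH/3T3. There 9 of 10 were called lower, all but Acss2, against 18.9% of all 13941 genes tested. The log2 changes of the 9 ran from -0.32 ± 0.09 (Elovl6) to -0.79 ± 0.16 (Fasn), with a median over the 10 of -0.37 beside -0.01 over all genes. Only Fasn was called in CGR8 (-0.67 ± 0.16, adjusted p = 0.0108), against 19.9% of 15933 genes called in either direction, and the median over the 10 was -0.25 beside 0.01 over all genes. The difference between the lines in the 2 h response was called for none of the 10 (share of all genes 2.02%), with unadjusted p of 0.0216 for Elovl6 and 0.0402 for Srebf1 and no call by DESeq2. Libraries of these groups stood apart. Replicate A of 2 h in NIH/3T3 was the highest of its group in 9 of the 10 genes (summed 2402 CPM beside 1889 and 1813), and replicate C of 2 h in CGR8 was the lowest in 7 (summed 3076 CPM beside 3832 and 4035). Leaving out 1 library left between 5 and 9 called genes in NIH/3T3 and between 0 and 4 in CGR8, with Fasn lost in CGR8 without replicate C of 2 h (adjusted p = 0.0669).

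At 5 h all 10 genes were called lower in NIH/3T3 (27.1% of all genes were) and 8 of 10 in CGR8 (27.2%), where Acss2 and Elovl6 were not called. The median log2 change over the 10 was -0.77 in NIH/3T3 and -0.71 in CGR8, beside -0.01 over all genes in both. No alternative that was run, including leaving out each library, changed these counts. Because each time is compared with the same 0 h libraries, the changes at the 4 times are not independent of one another. In CGR8 replicate A of 5 h was the lowest of its group in 6 of the 10 genes (summed 2124 CPM beside 2858 and 2774).

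**Figure D2:**
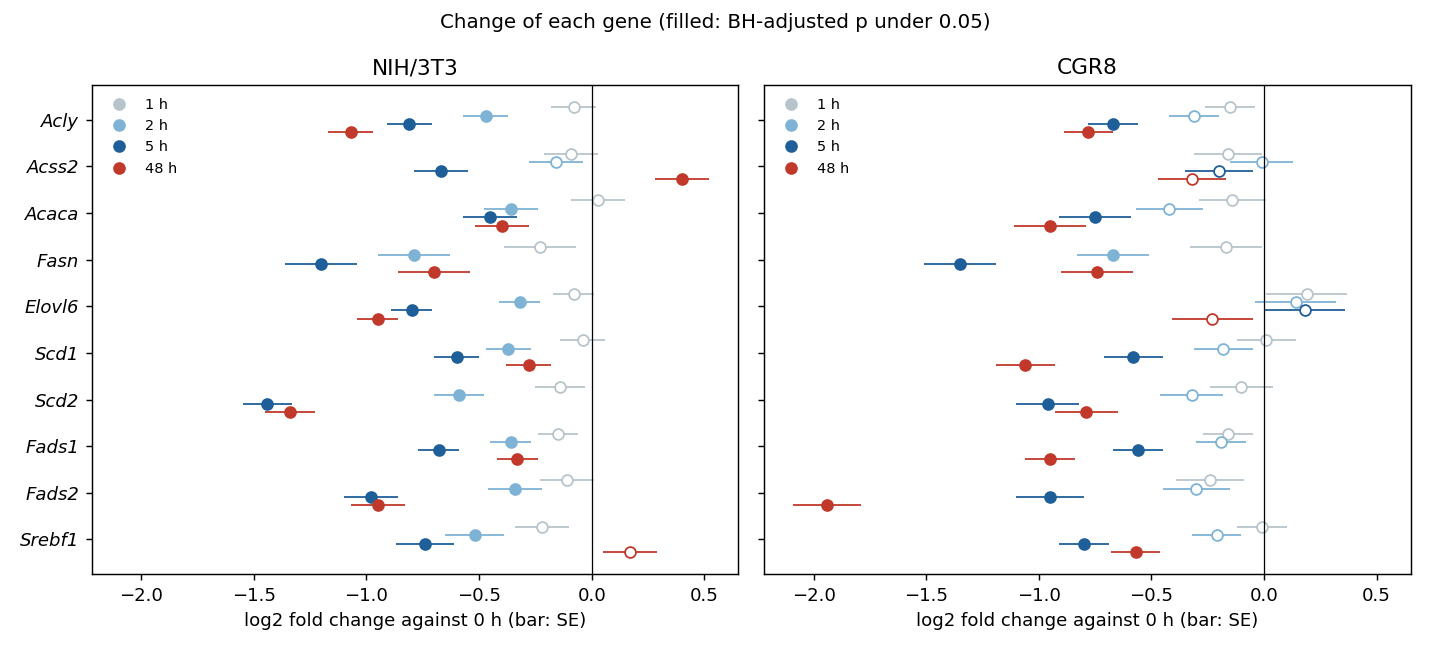
Log2 fold change of each gene against 0 h (horizontal axis) at 1, 2, 5 and 48 h in NIH/3T3 (left) and CGR8 (right), with the SE as a bar. Filled points have a Benjamini-Hochberg adjusted p under 0.05. At 5 h all 10 points of NIH/3T3 are filled and below 0, while Acss2 and Elovl6 of CGR8 are open.

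At 48 h the lines had parted. In NIH/3T3 8 of the 10 were still called lower (25.6% of all genes), Acss2 was called higher (26.7% of all genes) and Srebf1 was not called. In CGR8 8 of 10 were called lower (15.6% of all genes), again all but Acss2 and Elovl6. The median over the 10 was -0.55 in NIH/3T3 and -0.78 in CGR8. Between 5 h and 48 h, 5 genes rose and 1 fell in NIH/3T3, and 1 rose and 3 fell in CGR8. Over all genes 65.6% and 57.5% were called in either direction, so these counts (6 and 4 of the 10) did not exceed the shares of all genes. Of all genes called, 52.0% rose in NIH/3T3 and 50.3% in CGR8. The test of the difference between the lines at 48 h called 8 of the 10, against 21.9% of all 17549 genes. The following paragraphs take the genes by their role.

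Acly, which supplies acetyl-CoA from citrate, fell in both lines and was still low at 48 h. In NIH/3T3 it went from 354, 357 and 349.5 CPM at 0 h to 208, 196 and 201 CPM at 5 h and 165, 169.6 and 170.0 CPM at 48 h. In CGR8 it went from 841, 886 and 831 CPM at 0 h to 475, 605 and 524 CPM at 5 h and 506, 484 and 497 CPM at 48 h. The groups at 5 h and 48 h lay below those at 0 h in both lines. The log2 changes were -0.81 ± 0.10 at 5 h and -1.07 ± 0.10 at 48 h in NIH/3T3, and -0.67 ± 0.11 and -0.78 ± 0.11 in CGR8, with adjusted p of at most 1e-04. It was also called lower at 48 h than at 5 h in NIH/3T3 (-0.26 ± 0.10, adjusted p = 0.0233), a call lost in 5 of the 6 fits without 1 library (adjusted p up to 0.0716), with library size scaling (adjusted p = 0.0939) and with no filter. The responses of the lines at 48 h differed by 0.27 ± 0.14, which was not called (adjusted p = 0.179).

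Acss2, which makes acetyl-CoA from acetate, was the lowest of the 10, and in NIH/3T3 it fell and then rose above its starting level. Its levels there were 7.51, 7.30 and 9.07 CPM at 0 h, 5.27, 4.81 and 4.93 CPM at 5 h and 11.1, 11.1 and 9.43 CPM at 48 h. Each of the 3 groups lay apart from the others. It fell by 0.67 ± 0.12 on the log2 scale at 5 h (adjusted p = 2.87e-04) and stood 0.40 ± 0.12 above 0 h at 48 h (adjusted p = 0.00862), a rise of 1.08 ± 0.12 from 5 h. In CGR8 the levels were 11.1, 10.9 and 8.46 CPM at 0 h, 8.79, 9.42 and 8.36 CPM at 5 h and 9.43, 7.73 and 7.29 CPM at 48 h. These groups overlap, and no change was called (-0.20 ± 0.15 at 5 h, -0.32 ± 0.15 at 48 h). The 48 h responses of the lines differed by -0.74 ± 0.19 (CGR8 minus NIH/3T3, adjusted p = 0.00492). In GENCODE M21 Acss2 overlaps Ggt7, Acss2os and Gss on the opposite strand and Mipep-ps and Gm20637 on its own, and the use of strand in the counting is not given in the sources used here, so that its counts are uncertain.

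Acaca, which makes malonyl-CoA, fell by 5 h and stayed down at 48 h in each line. Its mean in NIH/3T3 was 141 ± 7.47 CPM at 0 h, 103 ± 5.90 at 5 h and 107 ± 3.03 at 48 h (SD, n = 3), or 73.2% and 75.9% of the 0 h mean. In CGR8 it was 126 ± 3.97 CPM at 0 h, 74.8 ± 18.7 at 5 h and 64.9 ± 4.59 at 48 h, or 59.5% and 51.7%. Groups at 5 h and 48 h did not overlap with 0 h in either line. The difference between the lines at 48 h (-0.57 ± 0.20, adjusted p = 0.0367) was lost in 11 of the 12 fits without 1 library, where the adjusted p reached 0.0995. The counts of Acaca are uncertain, because 52.6% of the 50-base words of its longest transcript also occur in the predicted gene Gm5182, to which the counts gave 3.90 to 6.80 CPM in NIH/3T3 and 4.22 to 10.3 CPM in CGR8.

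Fasn, which assembles palmitate, was the one gene called lower in both lines at 2 h, and it rose again between 5 h and 48 h in both. The NIH/3T3 libraries held 515, 435 and 503 CPM at 0 h, 327, 273 and 240.0 at 2 h, 189.5, 206 and 234 at 5 h and 291, 299 and 304 at 48 h. In CGR8 they held 1124, 1082 and 1047 CPM at 0 h, 745, 779.7 and 519 at 2 h, 329.5, 497 and 448 at 5 h and 654, 611 and 684 at 48 h. From 2 h on every treated library lay below every 0 h library of its line, and the 48 h libraries lay above those of 5 h. The log2 change at 5 h was -1.20 ± 0.16 in NIH/3T3 (adjusted p = 1.97e-05) and -1.35 ± 0.16 in CGR8 (adjusted p = 1e-05). From 5 h to 48 h it rose by 0.50 ± 0.16 in NIH/3T3 (adjusted p = 0.0117) and by 0.61 ± 0.16 in CGR8 (adjusted p = 0.00421), to 61.5% and 59.9% of the 0 h mean. The rise in NIH/3T3 was not called without replicate A of 5 h (adjusted p = 0.0558). The responses of the lines at 48 h differed by -0.05 ± 0.24 (adjusted p = 0.978).

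Elovl6, the elongase that makes stearate from palmitate, behaved differently in the lines. In NIH/3T3 it went from 106, 124 and 101 CPM at 0 h to 61.7, 65.7 and 62.3 CPM at 5 h and 55.3, 57.0 and 58.6 CPM at 48 h. In CGR8 it stood at 215, 163 and 213 CPM at 0 h, at 181, 221 and 269.9 CPM at 5 h and at 205, 138 and 161 CPM at 48 h. The NIH/3T3 groups do not overlap and those of CGR8 do. The log2 changes in NIH/3T3 were -0.80 ± 0.09 at 5 h and -0.95 ± 0.09 at 48 h (adjusted p of 3.01e-06 and 3.58e-07). In CGR8 they were 0.18 ± 0.18 and -0.23 ± 0.18 and were not called. From 5 h to 48 h the change was called in neither line. It was -0.15 ± 0.09 in NIH/3T3 (adjusted p = 0.148) and -0.41 ± 0.18 in CGR8 (adjusted p = 0.0660). Voom with sample quality weights called it in both lines. The difference between the lines at 5 h was 1.07 ± 0.21 (adjusted p = 7.46e-04), beside a median of 0.13 over all genes. It was called under every alternative run, at 0.99 with RLE scaling and 0.89 with library size alone. At 5 h 13.3% of all genes were called in this test, of which 61.6% were on the higher side with TMM, 45.9% with RLE and 31.5% with library size alone. At 48 h the difference was 0.71 ± 0.21 (adjusted p = 0.0137), and it was not called with library size scaling (adjusted p = 0.0685) or without CGR8 replicate A of 48 h (adjusted p = 0.0575). Elovl6 shares 4.59% of the 50-base words of its longest transcript with other genes, among them Gm11295, Trim12c and Tanc2.

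Scd2, the stearoyl-CoA desaturase with the highest level in both lines, had the largest fall of the 10 in NIH/3T3. There it went from 1191, 1145 and 1069 CPM at 0 h to 901, 701 and 665 CPM at 2 h, 419.7, 403 and 432 CPM at 5 h and 464, 444 and 434 CPM at 48 h. In CGR8 it went from 1505, 1540.3 and 1537 CPM at 0 h to 591, 868 and 899 CPM at 5 h and 938, 825 and 896 CPM at 48 h. The treated groups at 5 h and 48 h lay well below 0 h in both lines. The log2 change at 5 h was -1.44 ± 0.11 in NIH/3T3 (adjusted p = 1.5e-07, 36.8% of the 0 h mean) and -0.96 ± 0.14 in CGR8 (adjusted p = 5.33e-05, 51.5%). At 48 h it was -1.34 ± 0.11 and -0.79 ± 0.14, and the change from 5 h to 48 h was called in neither line. The fall was smaller in CGR8 by 0.57 ± 0.18 at 5 h (adjusted p = 0.0347) and by 0.54 ± 0.18 at 48 h (adjusted p = 0.0301). The first of these was not called with RLE (0.49, adjusted p = 0.0898) or library size scaling (0.38, adjusted p = 0.214) and in 9 of 12 fits without 1 library, and the second was not called with library size scaling and in 5 of 12.

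Scd1, the other stearoyl-CoA desaturase measured well here, was lower in CGR8 than in NIH/3T3 relative to its 0 h level at 48 h. In NIH/3T3 it went from 221, 215 and 207 CPM at 0 h to 139, 139 and 146 CPM at 5 h and back up to 175, 178 and 178 CPM at 48 h. In CGR8 it went from 417, 419 and 413 CPM at 0 h to 224, 311 and 301 CPM at 5 h and on down to 219.5, 178 and 200.3 CPM at 48 h. The 3 groups of a line do not overlap in either case. From 5 h to 48 h it rose by 0.32 ± 0.10 on the log2 scale in NIH/3T3 (adjusted p = 0.00920) and changed by -0.48 ± 0.13 in CGR8 (adjusted p = 0.00454). Against 0 h the changes at 48 h were -0.28 ± 0.10 and -1.06 ± 0.13, and their difference was -0.81 ± 0.16 (adjusted p = 4.88e-04). The NIH/3T3 call at 48 h was lost with library size scaling (adjusted p = 0.0914) and in 5 of the 6 fits without 1 library (adjusted p up to 0.0820), while the difference between the lines was kept in all 12. Scd1 and Scd2 share 4.66% and 4.01% of their 50-base words with each other and with Scd3 and Scd4, whose levels did not exceed 2.65 CPM in any library.

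Fads1 and Fads2, the desaturases of polyunsaturated fatty acids, were lower at 5 h in both lines, and in CGR8 they fell again between 5 h and 48 h. Fads2 in CGR8 went from 169, 198 and 175 CPM at 0 h to 97.7, 96.7 and 85.5 CPM at 5 h and 56.3, 41.4 and 42.7 CPM at 48 h. Its log2 change at 48 h, -1.94 ± 0.15 (adjusted p = 3.89e-07), was the largest of the 10 in that line and left 26.0% of the 0 h mean. In NIH/3T3 it went from 231, 193 and 233 CPM to 115, 107 and 111 CPM at 5 h and 113, 112 and 114 CPM at 48 h (-0.98 ± 0.12 and -0.95 ± 0.12). The change from 5 h to 48 h was -0.99 ± 0.15 in CGR8 (adjusted p = 4.16e-05), and no change was called in NIH/3T3. Fads1 in CGR8 went from 129, 142 and 132 CPM at 0 h to 93.4, 93.5 and 86.3 CPM at 5 h and 75.9, 69.6 and 63.6 CPM at 48 h. In NIH/3T3 it went from 211, 195 and 201 CPM to 127, 126 and 126 CPM and then back to 165, 157 and 159.5 CPM, a rise of 0.35 ± 0.09 from 5 h (adjusted p = 0.00239). The changes at 48 h were lower in CGR8 by 0.63 ± 0.14 for Fads1 (log2 difference -0.63, adjusted p = 0.00117) and by 1.01 ± 0.20 for Fads2 (log2 difference -1.01, adjusted p = 4.7e-04). Both differences were called under every alternative run.

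Srebf1, which encodes the transcription factor SREBP1, fell in both lines by 5 h and came back in NIH/3T3. There it stood at 59.6, 55.6 and 60.6 CPM at 0 h, 34.3, 34.4 and 36.8 CPM at 5 h and 66.0, 65.6 and 66.0 CPM at 48 h. In CGR8 it stood at 129, 109.5 and 121 CPM at 0 h, 69.7, 68.6 and 68.6 CPM at 5 h and 86.2, 75.8 and 81.1 CPM at 48 h. The 48 h libraries of NIH/3T3 all lay above those of 0 h, and those of CGR8 lay between 5 h and 0 h. The changes at 5 h were -0.74 ± 0.13 and -0.80 ± 0.11 (adjusted p of 1.51e-04 and 3.5e-05). In NIH/3T3 it rose by 0.91 ± 0.13 from 5 h to 48 h (adjusted p = 9.99e-06), and the change of 0.17 ± 0.12 against 0 h was not called (adjusted p = 0.263), though it was called when the compared groups were fitted alone and by voom with sample quality weights. In CGR8 the change at 48 h against 0 h was -0.57 ± 0.11 (adjusted p = 0.00137), and the responses of the lines differed by -0.75 ± 0.17 (adjusted p = 0.00164). Gene counts sum the isoforms of Srebf1, and it overlaps Rai1 on the opposite strand in GENCODE M21, as Elovl6 and Acaca overlap the predicted genes Gm35986 and Gm11437.

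**Figure D3:**
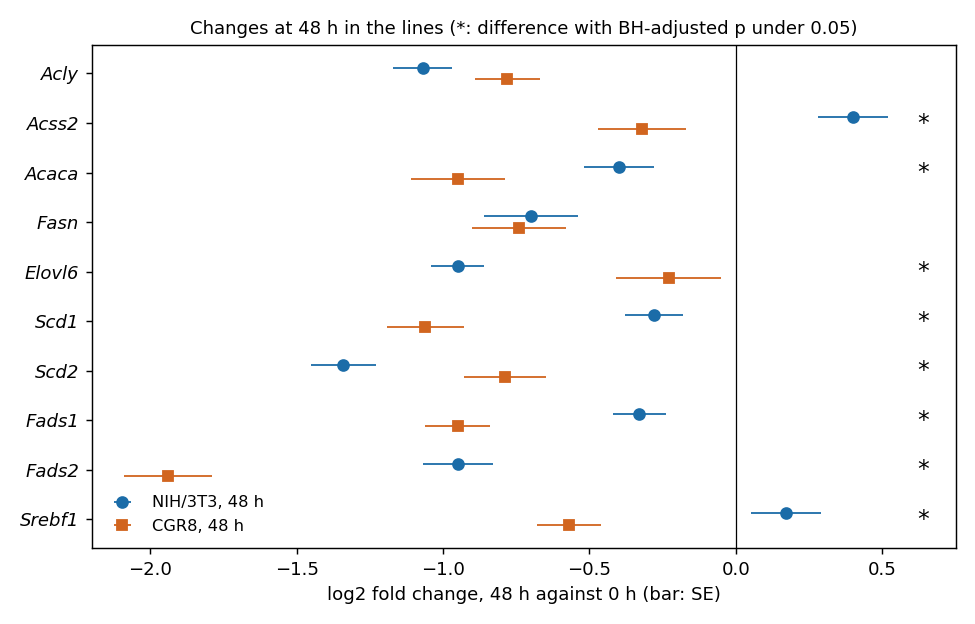
Log2 fold change at 48 h against 0 h (horizontal axis, bars show the SE) in NIH/3T3 (circles) and CGR8 (squares). Asterisks mark the 8 genes whose responses differed between the lines with an adjusted p under 0.05. The log2 changes of Elovl6 and Scd2 were higher in CGR8. Those of Acss2, Acaca, Scd1, Fads1, Fads2 and Srebf1 were lower there.

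The courses of the 10 genes were compared over the 8 log2 changes (4 times in each line), which share the 0 h libraries of their line. Scd1 and Fads1 were the most alike pair (r = 0.984), and Acly was most like Scd2 (r = 0.938). Acss2 and Srebf1, the genes that regained their level in NIH/3T3, were each other's nearest (r = 0.784). The lowest r of any pair was that of Elovl6 with Srebf1 (-0.103), while Elovl6 reached 0.783 with Scd2. Of 8734 other genes that averaged 10 CPM or more, those most like the mean course of the 10 were Sgsm1 (r = 0.979), Smo (0.976), Kctd6 (0.973), Spats2 (0.972) and Erf (0.969), none of them on the pathway lists used here. These values describe the 8 points and carry no test.

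Other genes of the pathway were read from 6 lists, each given as called genes of those that passed the filter, beside the shares of all genes given above. Called higher were 24.0% of all genes at 5 h in NIH/3T3, 24.9% at 5 h in CGR8 and 12.2% at 48 h in CGR8. Of the other elongation and desaturation genes, 7 of 10 were lower at 5 h and 9 of 10 at 48 h in NIH/3T3, with none higher. They included Tecr, the last enzyme of the elongation cycle (-0.72 ± 0.13 at 5 h), and the desaturase relative Fads3 (-1.25 ± 0.11 at 48 h). In CGR8 4 of 12 were lower and 1 higher at 5 h, and 5 were lower and 1 higher at 48 h. The 5 calls at 5 h became 3 without replicate C of 0 h. The largest falls there were in the elongases Elovl1 (-1.34 ± 0.21 at 5 h) and Elovl7 (-1.20 ± 0.21 at 48 h). The rises were in the dehydratases Hacd2 (0.37 ± 0.11 at 5 h) and Hacd1 (0.58 ± 0.15 at 48 h), calls lost in 2 and 1 of the 6 fits without 1 library. The list's median was -0.39 and -0.58 in NIH/3T3 and -0.16 and -0.33 in CGR8.

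Genes for precursors, NADPH and the regulation of the carboxylase divided. At 5 h 6 of 9 were lower and 2 higher in NIH/3T3, and 1 of 11 was lower and 4 higher in CGR8. G6pdx, which makes NADPH, fell in NIH/3T3 (-0.86 ± 0.12). Mlycd, the decarboxylase that breaks malonyl-CoA down again, was higher in NIH/3T3 at 5 h (1.12 ± 0.28) and 48 h (2.21 ± 0.26), from 0.838 to 3.98 CPM. In CGR8 the largest rise at 5 h was that of Thrsp, a lipogenic protein (2.71 ± 0.37, from 0.346 to 2.33 CPM), and Mid1ip1, its relative, fell (-0.48 ± 0.12). At 48 h 4 of 9 were lower and 3 higher in NIH/3T3, and 6 of 11 lower and 1 higher in CGR8. The largest fall was that of the NADPH producer Pgd in NIH/3T3 (-0.83 ± 0.14) and of malic enzyme Me1 in CGR8 (-1.38 ± 0.14). Acss1, the mitochondrial acetyl-CoA synthetase, was the gene called higher in CGR8 (0.48 ± 0.10).

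Of the genes that control SREBP and LXR, 6 of 11 were lower and 2 higher in NIH/3T3 at 5 h, and 6 of 13 lower and 3 higher in CGR8. Insig1, which holds the SREBP complex in the endoplasmic reticulum, went from 58.5 ± 1.67 CPM at 0 h to 9.59 ± 0.879 at 5 h and 7.86 ± 0.764 at 48 h in NIH/3T3 (log2 changes -2.61 ± 0.10 and -2.90 ± 0.11). In CGR8 it went from 162 ± 5.82 CPM to 72.8 ± 7.10 and 73.5 ± 5.09 (-1.15 ± 0.10 and -1.14 ± 0.10). Scap, which escorts SREBP to its proteases, changed by -1.0 ± 0.14 in NIH/3T3 and -0.94 ± 0.13 in CGR8 at 5 h, and at 48 h its changes of -0.21 ± 0.13 and -0.29 ± 0.12 were not called. The nuclear receptor gene Nr1h2 (LXR beta) did likewise (-1.16 ± 0.12 and -0.89 ± 0.12 at 5 h, 0.01 ± 0.11 and -0.19 ± 0.12 at 48 h). Srebf2, the sterol-regulating relative of Srebf1, was lower at 5 h in both lines (-1.09 ± 0.11 and -0.63 ± 0.13) and at 48 h in NIH/3T3 (-1.01 ± 0.11), while its change of -0.23 ± 0.13 in CGR8 was not called. In CGR8 Mbtps1, the protease that cleaves SREBP, had the largest fall of this list at 5 h (-1.26 ± 0.10). In NIH/3T3 the largest rises were in Rnf139 at 5 h (0.44 ± 0.11) and Insig2 at 48 h (0.64 ± 0.09). Nr1h3 and Mlxipl, the genes of LXR alpha and ChREBP, failed the filter in NIH/3T3, and in CGR8 they stayed at or below 1.30 CPM with no change called. At 48 h 5 of 11 were lower and 1 higher in NIH/3T3, and 3 of 13 lower in CGR8, where voom gave 8 calls in place of 3.

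Of the SREBP2 sterol genes, most of which act in cholesterol synthesis, 11 of 12 were lower at 5 h and 12 of 12 at 48 h in NIH/3T3, with medians of -0.72 and -1.38. In CGR8 5 of 13 were lower at 5 h and 9 of 13 at 48 h, with medians of -0.23 and -0.55. The difference between the lines at 48 h was called for 8 of the 13 toward CGR8 and for 1 toward NIH/3T3, with a median of 1.05 beside -0.03 over all genes.

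Genes that activate fatty acids and assemble glycerolipids were lower in 6 of 12 and higher in 3 at 5 h in NIH/3T3, and lower in 7 of 14 and higher in 1 in CGR8. Lpin1, a phosphatidate phosphatase, went from 17.2 ± 1.19 CPM to 3.54 ± 0.723 at 5 h and 28.4 ± 2.98 at 48 h in NIH/3T3 (-2.28 ± 0.17 and 0.73 ± 0.14). In CGR8 it was lower at 5 h (-1.13 ± 0.15). The largest rise at 5 h in both lines was that of Acsl4, an acyl-CoA synthetase (0.60 ± 0.10 in NIH/3T3 and 0.57 ± 0.19 in CGR8), a call lost in 3 of the 6 CGR8 fits without 1 library. At 48 h 4 of 12 were lower and 4 higher in NIH/3T3, where Dgat2, which makes triglyceride, had the largest fall (-1.35 ± 0.14). In CGR8 2 of 14 were lower, with Agpat2 at -0.85 ± 0.16. These 2 calls became 4 without replicate A of 48 h and 9 with voom.

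The genes of fatty-acid oxidation, the opposing pathway, did not move one way. At 5 h 3 of 11 were lower and 2 higher in NIH/3T3 (3 calls in all with no filter), and 3 of 11 lower and 4 higher in CGR8. Ppard, a nuclear receptor, had the largest fall in both (-0.83 ± 0.13 and -1.56 ± 0.11). The largest rises were in the carnitine carrier Slc25a20 in NIH/3T3 (0.58 ± 0.16) and Hadhb in CGR8 (0.53 ± 0.10). At 48 h 5 of 11 were higher and 1 lower in NIH/3T3, with a median of 0.51. Cpt1a, which commits fatty acids to oxidation, went from 32.4 ± 2.79 CPM at 0 h to 90.8 ± 2.98 CPM at 48 h there (1.49 ± 0.13), and Acadl fell (-0.38 ± 0.09). In CGR8 4 of 11 were lower and 1 higher, with Slc25a20 at -1.41 ± 0.13 and Hadha at 0.28 ± 0.10, the latter call lost in 5 of the 6 fits without 1 library. The 5 calls of this list became 3 without replicate A or C of 0 h, 1 without replicate B or C of 48 h, 2 with no filter and 8 with voom.

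**Figure D4:**
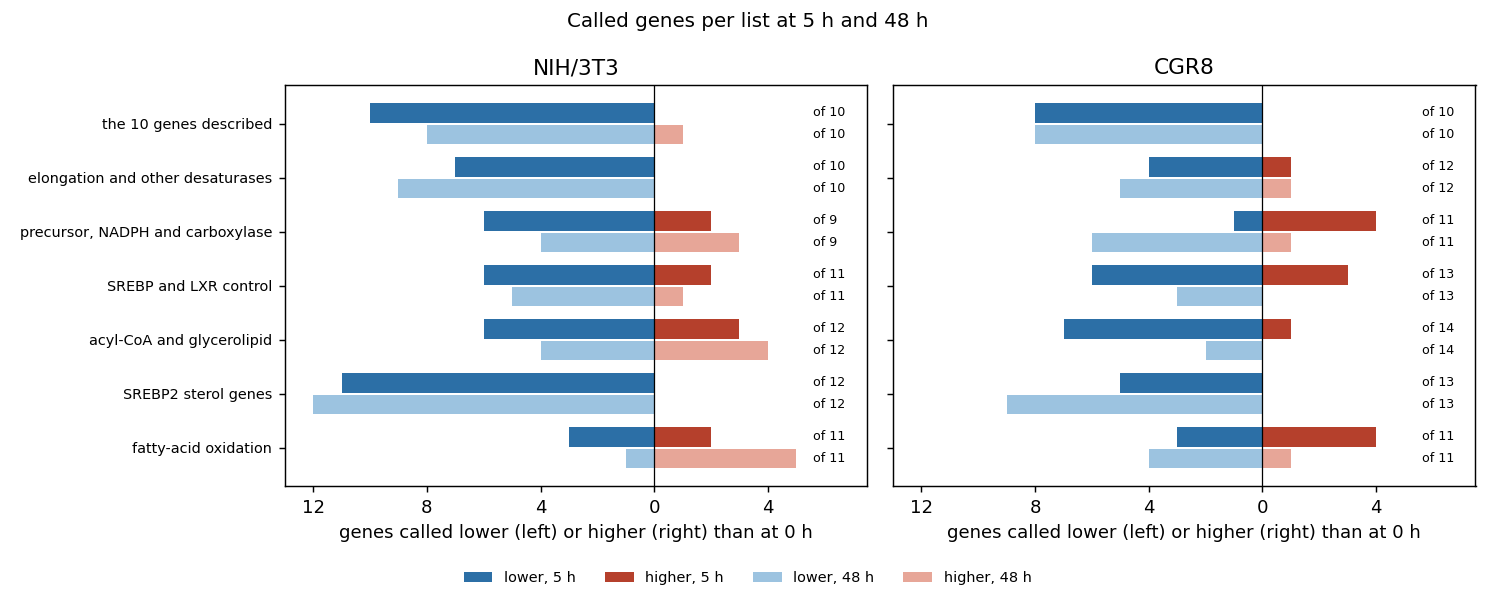
Number of genes called lower (bars to the left) and higher (bars to the right) than at 0 h in each list, at 5 h (dark) and 48 h (light), for NIH/3T3 and CGR8, with the number tested beside each bar. The 12 sterol genes tested in NIH/3T3 are all on the lower side at 48 h, while the oxidation genes have 5 on the higher side.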

How the data were processed

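RNA was purified on columns and sequenced as stranded mRNA libraries, per the labels' protocols. The authors deposited whole-number read counts per gene, 1 column per library. STAR, DESeq2 and GRCm39 are named in the submitters' processing notes, without a role. The counter, its use of strand and the annotation release are not given in the sources used here. All 30 columns were used.

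Counts were tested in R 4.3.3 with edgeR 4.0.16: filterByExpr (minimum count 10, total 15), TMM, 1 quasi-likelihood fit per line with a coefficient per time, and 1 fit of all 30 libraries for differences between the lines. Benjamini-Hochberg adjustment ran over every gene tested, and genes were called under 0.05. The SE is the log2 fold change divided by the root of F. Members and lists were chosen with earlier results of these data known. Named list genes are those with the largest called rise and fall at 5 h and 48 h whose higher group averaged 1 CPM or more, and the regulators Srebf2, Scap, Insig1, Nr1h2, Nr1h3 and Mlxipl. Some list genes that this rule picks are counted but not reported here. Symbols matched 51880 identifiers (90.7%). No label says that the replicates are separate cultures, so p-values measure the spread between these samples, which may be technical.

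Alternatives were RLE or library size scaling, DESeq2 1.42.0, no filter, a mean of at least 5 CPM, the compared groups alone, a replicate block, each library left out, and limma 3.58.1 voom with sample quality weights, added after the data were seen. Only the test of 5 h against 0 h in each line was run on simulated counts, in which no library was made to stand apart as some do here. The outcome is not reported here, and it does not cover the other comparisons.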

Additional observations from a re-analysis of the deposited data

Results flagged for a closer look

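The responses of the lines to CHX differed by the interaction test for 10 combinations of gene and time. At 5 h these were Elovl6 (log2 difference 1.07, CGR8 minus NIH/3T3) and Scd2 (0.57). At 48 h Elovl6 (0.71) and Scd2 (0.54) were again on the higher side in CGR8. On the lower side at 48 h were Fads2 (-1.01), Scd1 (-0.81), Srebf1 (-0.75), Acss2 (-0.74), Fads1 (-0.63) and Acaca (-0.57). Their errors and adjusted p-values stand with each gene in the report. The lines also differ in culture medium, which cannot be told apart from the line.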

How the results depend on the processing

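No called change of the 10 genes reversed its direction under any alternative run. Leaving out 1 library gave 0 to 0 called genes at 1 h, 5 to 9 at 2 h, 10 to 10 at 5 h, 8 to 9 at 48 h and 4 to 6 from 5 h to 48 h in NIH/3T3, and 0 to 0, 0 to 4, 8 to 8, 8 to 9 and 4 to 6 in CGR8. For the differences between the lines it gave 0 to 0 at 1 h and 2 h, 1 to 3 at 5 h and 5 to 8 at 48 h, and 7 to 8 for the untreated lines. In CGR8 at 2 h the reported count of 1 became 2 with library size scaling, no filter or the 5 CPM filter, 3 with DESeq2 and 5 with voom. The reported 2 genes differing at 5 h became 1 with RLE, library size, DESeq2, the 5 CPM filter or the compared groups alone, and 5 with voom. Voom gave 1 gene at 1 h in NIH/3T3 and 8 from 5 h to 48 h in CGR8. The cause of these changes was not tested. With the replicate block the count was 7 for the untreated lines and as reported in the other comparisons, and the letters did not pair the libraries (median r of same-lettered deviations 0.02 in both lines, 5 of 15 libraries in each line most like their own letter).

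At 2 h in NIH/3T3 the calls lost without 1 library were those of Acaca (each library but 2 h A), Fads2 (0 h A or C, 2 h B or C), Elovl6 (0 h B or 2 h C) and Scd1 (2 h B or C), with adjusted p up to 0.173, 0.212, 0.0667 and 0.0686. Those of Scd1 at 48 h (each but 0 h C) and Acly from 5 h to 48 h (each but 5 h B) were lost in the same way. For the lines, Acss2 at 0 h was lost without A or B of either line, Fads2 at 0 h without A or C of either, Acaca at 48 h without each library but CGR8 48 h C, Scd2 at 48 h without NIH/3T3 0 h A, 48 h B or 48 h C, CGR8 0 h A or 48 h A, and Scd2 at 5 h without each but NIH/3T3 0 h C, CGR8 0 h B and CGR8 5 h A.

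Over all genes, at 1 h 102 genes in NIH/3T3 became 27 to 2881 and 43 in CGR8 became 37 to 1044. At 2 h 4878 in NIH/3T3 reached 7827 and 3174 in CGR8 became 965 to 4609, and at 48 h 4429 in CGR8 reached 7063. The differences between the lines went from 28 to 15 to 259 at 1 h, from 355 to 182 to 709 at 2 h, from 2329 to 6373 at 5 h and from 3849 to 7622 at 48 h. For the untreated lines 13883 became 8601 with the 5 CPM filter and 15635 with no filter. A filter also changes how many genes are tested, and those numbers are not reported here. The share on the higher side moved from 53.5% to 68.4% with library size at 1 h in CGR8, and from 42.8% to 31.8% with RLE for the 2 h difference.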
